A study of Mus musculus with 2 samples.

Results

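The genes described here are Gpnmb, the 4 transcription factor genes of the MITF/TFE family (Mitf, Tfeb, Tfe3 and Tfec) and 4 genes best known from osteoclasts (Acp5, Ctsk, Atp6v0d2 and Dcstamp). They are 9 of 18090 gene entries in the data, and all 9 had reads in both libraries. They were chosen by name through their Entrez Gene numbers, with measured values in view: Gpnmb was picked because it was very abundant and higher in the mature library while most macrophage genes were lower. Its level and its ratio are therefore given as a description, as is everything below from the same contrast.

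The tested cells were mature dendritic cells (DC) and the cells set against them immature DC, with 1 RNA-seq library of each. Both were grown from bone marrow of C57BL/6 mice for 6 days in RPMI-1640 with GM-CSF (10 ng/ml) and IL-4 (1 ng/ml). The protocol gives lipopolysaccharide (LPS), a bacterial trigger of DC maturation, at 100 ng/ml for 24 h to a sample it calls number 2, which is taken here as the mature library. Both populations were then sorted on surface CD86 and I-Ab, with gates not given, so each library is a bulk sample of sorted cultured cells. The mature library held 8.07 M counted reads and the immature library 7.56 M. With 1 library per state there is no replicate error and no test. Each interval in parentheses below is an exact 95% counting interval, which covers counting error only.

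Mitf, Tfeb, Tfe3 and Tfec encode related basic helix-loop-helix leucine zipper proteins that bind E-box DNA as homodimers and heterodimers. Tfeb and Tfe3 are known for driving lysosomal and autophagy genes, and their entry into the nucleus is held back when the kinase mTORC1 is active at the lysosome, so their RNA level is only one layer of their control. Mitf, with Tfe3, is needed for osteoclasts, the bone-resorbing cells of the myeloid lineage, where it acts on genes such as Acp5 and Ctsk. Gpnmb, a heavily glycosylated transmembrane protein also called osteoactivin and DC-HIL, is a known target of this family in macrophages and melanocytes.

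The relation between the 4 factors, which bears on whether uniquely placed reads can be told apart, is seen in the 60 coding bases most alike in all of them. These were found in the longest open reading frames of GENCODE M21 transcripts and lie in the helix-loop-helix region, where dimers form. Capitals mark the 14 positions not shared by all 4 genes.
Mitf: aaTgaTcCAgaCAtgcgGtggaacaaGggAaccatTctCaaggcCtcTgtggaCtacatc
Tfeb: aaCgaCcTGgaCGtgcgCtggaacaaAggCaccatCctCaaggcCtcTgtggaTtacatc
Tfe3: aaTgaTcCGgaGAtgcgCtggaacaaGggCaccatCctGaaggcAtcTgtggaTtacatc
Tfec: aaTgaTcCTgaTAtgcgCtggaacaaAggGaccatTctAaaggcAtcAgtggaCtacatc
Over this window Tfeb shared 50 of 60 bases with Mitf, and Tfe3 and Tfec shared 52 each. The longest run identical to Mitf was 17 bases in Tfeb, 12 in Tfec and 11 in Tfe3. The differences fall mostly at the last base of a codon. No stretch of 35 bases of the Tfeb, Tfe3, Tfec, Ctsk or Dcstamp transcripts occurred in a transcript of another gene. For Mitf, Atp6v0d2 and Gpnmb the share of such stretches found elsewhere was 0.144%, 0.279% and 0.654%. For Acp5 it was 7.71%, all in 6530413G14Rik, which overlaps it on the opposite strand. Strandedness is not given in the sources used here, so reads of Acp5 and of that gene cannot be told apart where they overlap.

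Gpnmb was the most abundant of the 9 genes in both libraries. It had 69963 reads in the mature library, against 24803 in the immature library. Its level was 2282 RPKM (2265 to 2299) in mature DC and 863 RPKM (853 to 874) in immature DC, where RPKM is the read count scaled to the gene model length and to the counted reads of the library. The mature level was 2.64-fold higher (2.60 to 2.68), a log2 ratio of 1.40 on the scale of RPKM + 1. These reads made up 0.867% of all counted reads in the mature library and 0.328% in the immature library. By RPKM the gene ranked 11 in the mature library and 51 in the immature library. Reads covered 98.2% of the gene model in mature DC and 98.4% in immature DC.

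Gpnmb was picked for its level and its ratio, so its place among the genes compared is description only. The genes compared were the 11547 that reached 1 RPKM in either library. Of these, 504 (4.36%) had a higher log2 ratio than Gpnmb. Of 48 genes whose mean level lay within 2-fold of that of Gpnmb, itself among them, 12.5% had a higher ratio. In the mature library 12 genes stood at 2000 RPKM or more, of which 4 were at least 2-fold higher and 1 at least 2-fold lower than in the immature library. In the immature library 14 genes reached that level. At 1000 RPKM or more in mature DC, 11 of 27 genes were higher and 2 lower, and at 500 RPKM 24 of 83 and 10. Over all genes compared, 9.05% were higher and 11.3% lower. A cut on the mature level itself favours genes that are higher there, so these counts are description only. The 5 genes nearest to Gpnmb, by distance on log2(RPKM + 1) over the 2 libraries, were Srgn, Ctss, Prdx1, Ctsz and Csf2rb. The closest, Srgn, the proteoglycan core protein of secretory granules, lay 0.44 log2 units away. It stood at 1995 RPKM in mature DC and 658 RPKM in immature DC, 3.03-fold higher (2.93 to 3.13). Prdx1, a peroxide-reducing enzyme, was 2.31-fold higher (2.24 to 2.37) in mature DC. The lysosomal protease genes Ctss and Ctsz were 1.28-fold (1.25 to 1.31) and 1.66-fold higher (1.63 to 1.69). Csf2rb, the shared beta chain of the GM-CSF receptor, was 1.57-fold higher (1.55 to 1.59). With 2 libraries this likeness rests on 2 values per gene.

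The rule that a gene counted as higher or lower was a ratio of at least 2-fold on the scale of RPKM + 1. By it, 2 of the 9 genes were higher in mature DC (Gpnmb and Acp5), 3 were lower (Tfec, Dcstamp and Tfeb) and 4 lay within 2-fold (Tfe3, Mitf, Atp6v0d2 and Ctsk). Over all genes compared, 9.05% were higher and 11.3% lower by the same rule. The median log2 ratio of the 9 was -0.096, against 0.026 over all genes compared. Their log2 ratios ran from -1.63 for Tfec to 1.64 for Acp5.

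**Figure D1:**
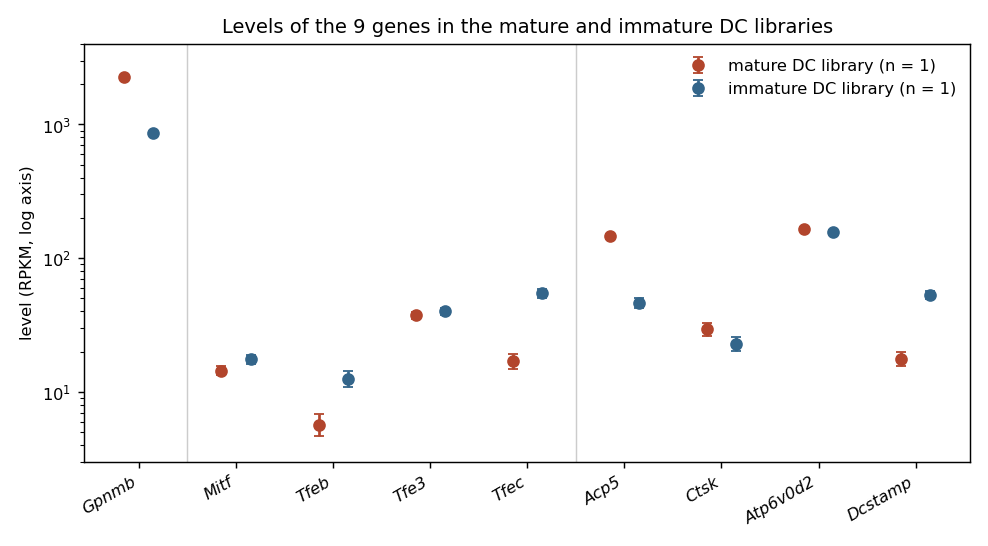
Level of each of the 9 genes in RPKM (log axis) in the mature (left point of each pair) and immature DC library (right point), 1 library each, with 95% Poisson counting intervals as bars. Gpnmb and Acp5 are higher in the mature library, Tfec, Dcstamp and Tfeb are lower, and the pairs of the other 4 lie close together.

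None of the factor genes was at least 2-fold higher in mature DC. Tfec, a family member expressed mainly in macrophages and other myeloid cells, had 244 reads in mature DC and 734 in immature DC. That gave 17 RPKM (14.9 to 19.3) in mature DC and 54.6 RPKM (50.7 to 58.6) in immature DC, 3.21-fold lower (2.77 to 3.73) in the mature library. Only 4.51% of all genes compared had a lower ratio.

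Tfeb, the factor named for lysosome biogenesis, had the lowest level of the 9 genes in both libraries. It had 108 reads in mature DC and 224 in immature DC, or 5.68 RPKM (4.66 to 6.85) and 12.6 RPKM (11.0 to 14.3). It was 2.21-fold lower (1.75 to 2.81) in mature DC. This is close to the threshold: its log2 ratio of -1.02 became -0.95 when both libraries were scaled to a common sum of RPKM and -0.72 with a pseudocount of 5 RPKM, and the interval of its ratio includes 2-fold.

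Tfe3, the broadly expressed member, had 998 reads in mature DC and 1001 in immature DC. Its level was 37.5 RPKM (35.2 to 39.9) in mature DC and 40.2 RPKM (37.7 to 42.8) in immature DC. The ratio of mature to immature was 0.934 (0.855 to 1.02), so no difference was detectable at this depth. Mitf, the founding member, had 570 reads in mature DC and 648 in immature DC, or 14.4 RPKM (13.3 to 15.7) and 17.5 RPKM (16.2 to 18.9). Its ratio was 0.824 (0.735 to 0.924), and 34.8% of all genes compared had a lower one.

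The make-up of the factor family at the RNA level therefore differed between the libraries. The summed level of the 4 genes was 74.6 RPKM in mature DC and 125 RPKM in immature DC. Tfe3 held 50.3% of that sum in mature DC and 32.2% in immature DC. Tfec held 22.8% in mature DC and 43.7% in immature DC. Mitf held 19.3% in mature DC and 14.0% in immature DC, and Tfeb 7.6% and 10.1%. The counting errors of these shares lay between 0.552 and 1.21 percentage points. Tfec stood at 0.453 times the level of Tfe3 (0.392 to 0.521) in mature DC and at 1.36 times its level (1.23 to 1.49) in immature DC, so the first 2 places in the family were exchanged. The shares and the ratio of Tfec to Tfe3 are comparisons per length within a library and do not depend on the scaling between libraries. They rest on the gene model length given for each gene. The summed levels do depend on that scaling.

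**Figure D2:**
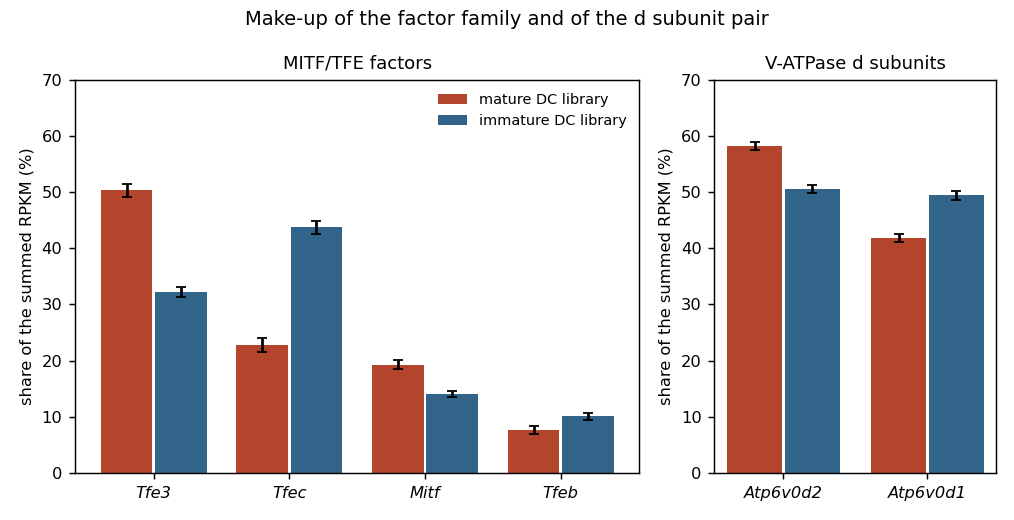
Share of the summed RPKM in percent, for the 4 MITF/TFE factor genes (left panel) and for the 2 genes of the V-ATPase d subunit (right panel), in the mature (left bar) and immature DC library (right bar). Error bars are 1 standard error from counting alone. Tfe3 leads the family in mature DC at 50.3% and Tfec in immature DC at 43.7%.

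The 4 genes known from osteoclasts differed in direction. Acp5 encodes tartrate-resistant acid phosphatase, the classical stain for osteoclasts that is also made by activated macrophages and DC. It had 1674 reads in mature DC and 497 in immature DC. Its level was 146 RPKM (139 to 153) in mature DC and 46.1 RPKM (42.1 to 50.4) in immature DC, 3.16-fold higher (2.85 to 3.49), the highest ratio of the 9 genes. Of all genes compared, 2.9% had a higher ratio.

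Dcstamp encodes a multi-pass membrane protein first found in DC and needed for the fusion of osteoclast precursors. It had 284 reads in mature DC and 805 in immature DC. Its level was 17.7 RPKM (15.7 to 19.8) in mature DC and 53.4 RPKM (49.8 to 57.2) in immature DC, 3.03-fold lower (2.64 to 3.48). Acp5 and Dcstamp thus separated between the libraries: the level of Acp5 was 8.24 times that of Dcstamp (7.27 to 9.38) in mature DC and 0.863 times it (0.771 to 0.967) in immature DC.

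Ctsk encodes cathepsin K, the collagen-degrading protease of osteoclasts. It had 351 reads in mature DC and 257 in immature DC, or 29.3 RPKM (26.3 to 32.6) and 22.9 RPKM (20.2 to 25.9). The mature level was 1.28-fold higher (1.09 to 1.51), and 32.6% of all genes compared had a higher ratio. A difference of this size is well inside the range that most genes spanned between the 2 libraries.

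Atp6v0d2 encodes the d2 subunit of the membrane part of the V-ATPase, the proton pump of lysosomes, an isoform abundant in osteoclasts. It had 3349 reads in mature DC and 2979 in immature DC, or 165 RPKM (159 to 170) and 156 RPKM (151 to 162). It was the second most abundant of the 9 genes in both libraries and its ratio was 1.05 (1.002 to 1.11). Its ubiquitous counterpart Atp6v0d1 stood at 118 RPKM in mature DC and 153 RPKM in immature DC. The d2 gene held 58.2% of the summed level of the pair in mature DC and 50.6% in immature DC. Per length, Atp6v0d2 thus stood at 1.39 times Atp6v0d1 (1.31 to 1.48) in mature DC and at 1.02 times it (0.965 to 1.08) in immature DC.

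The order of the 9 genes by level was the same at the top and the bottom of both libraries, with changes between. In mature DC it ran Gpnmb, Atp6v0d2, Acp5, Tfe3, Ctsk, Dcstamp, Tfec, Mitf and Tfeb. Dcstamp and Tfec, and Tfec and Mitf, were neighbours there whose counting intervals overlapped. In immature DC it ran Gpnmb, Atp6v0d2, Tfec, Dcstamp, Acp5, Tfe3, Ctsk, Mitf and Tfeb, and the neighbours from Tfec to Tfe3 had overlapping intervals. Gpnmb stood at 13.9 times the level of Atp6v0d2 (13.4 to 14.3) in mature DC and at 5.52 times it (5.31 to 5.74) in immature DC. Of all reads of the 9 genes, it held 90.2% in mature DC and 77.6% in immature DC.

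**Figure D3:**
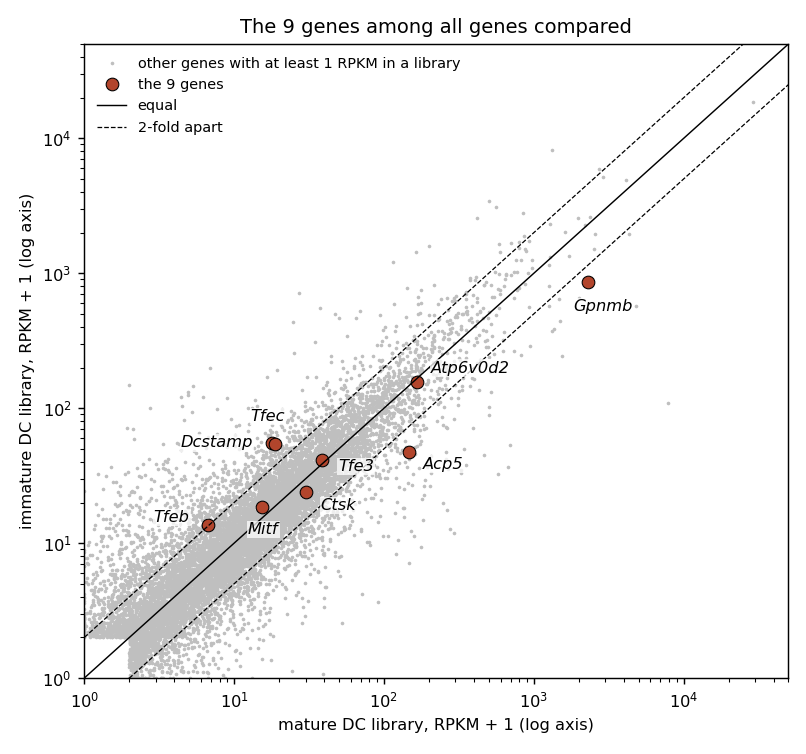
Each of the 11547 genes compared, by its RPKM + 1 in the mature (horizontal, log axis) and immature DC library (vertical, log axis), with the 9 genes marked. Points below the lower dashed line are at least 2-fold higher in mature DC, as Gpnmb and Acp5 are, and points above the upper dashed line at least 2-fold lower, as Tfec and Dcstamp are, with Tfeb on the line.

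The promoters of the members that were higher in mature DC are shown because both genes are known targets of E-box factors. RefSeq windows on GRCm38.p6, from 250 bases before to 50 after a start, were found for 7 of the 9 genes (not Atp6v0d2 and Dcstamp), 14 windows in all. In the Gpnmb window (chr6:49036268-49036567, plus strand) capitals mark a match to TGANTCA, the letters of an AP-1 site, which begins at the ninth base of the transcript. In the Acp5 window of 1 of its 3 starts (chr9:22130549-22130848, minus strand) capitals mark CACATG, the reverse complement of the M-box core CATGTG known for MITF, which begins 90 bases before the start.
Gpnmb: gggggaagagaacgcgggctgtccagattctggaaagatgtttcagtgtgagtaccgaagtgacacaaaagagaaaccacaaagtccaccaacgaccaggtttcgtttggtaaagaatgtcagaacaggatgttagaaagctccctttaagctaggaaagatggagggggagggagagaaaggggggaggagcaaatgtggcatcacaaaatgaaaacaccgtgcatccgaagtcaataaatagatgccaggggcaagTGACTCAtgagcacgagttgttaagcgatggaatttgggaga
Acp5: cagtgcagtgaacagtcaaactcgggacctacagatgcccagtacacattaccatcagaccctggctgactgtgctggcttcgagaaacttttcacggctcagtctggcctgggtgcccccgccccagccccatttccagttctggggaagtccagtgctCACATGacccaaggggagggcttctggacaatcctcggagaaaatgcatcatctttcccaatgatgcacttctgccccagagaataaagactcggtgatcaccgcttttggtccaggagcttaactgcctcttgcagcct
Both strands were searched. The palindromic E-box CACGTG was in none of the 14 windows and in 7.15% of all 32851 windows. CATGTG was in 1 of the 14, against 14.2% of all windows, and TGANTCA in 2 (of Gpnmb and Tfe3), against 7.81%. GAGGAA, a core bound by PU.1, was in 2 of the 14 windows (of Ctsk and Tfec), against 28.3% of all windows. GGAAAA, a core bound by NFAT proteins, was in 4 of the 14 windows (of Acp5, Ctsk, Tfe3 and Tfec), against 23.4% of all windows. These matches describe the letters of the windows only, and the windows used here do not show where a factor is bound.

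The genes around the osteoclast members were then described from lists. Of 25 genes of osteoclast differentiation and function, 22 reached 1 RPKM in a library, of which 8 were at least 2-fold higher in mature DC, 2 were lower and 12 lay within 2-fold. Over all genes compared, 9.05% were higher and 11.3% lower. The median log2 ratio of the osteoclast list was 0.17, against 0.026 over all genes compared. Tnfrsf11a, which encodes RANK, the receptor for the osteoclast-inducing ligand, was 17.1 RPKM in mature DC and 3.5 RPKM in immature DC, 4.88-fold higher (4.05 to 5.92). RANK is known for survival signals in DC as well. Car2, the carbonic anhydrase that supplies protons for acid secretion, was 135 RPKM in mature DC and 17.2 RPKM in immature DC, 7.83-fold higher (6.84 to 9.01). Itgav and Itgb3, the chains of the integrin by which osteoclasts attach to bone, had ratios of 5.2 (4.67 to 5.8) and 2.45 (1.95 to 3.09), the second on a level of only 5.92 RPKM in mature DC and 2.42 RPKM in immature DC. Fos, a subunit of AP-1 needed for osteoclasts, was 3.4-fold higher (2.97 to 3.9). The other 3 were Jdp2, Src and Prdm1, named after their values were seen, at 3.08-fold, 2.3-fold and 2.14-fold higher. With a pseudocount of 5 RPKM in place of 1, or with only intervals wholly beyond 2-fold counted, 5 genes of the list were higher.

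The other genes of the list named here were not at least 2-fold higher. Nfatc1, the transcription factor downstream of RANK, was 11.1 RPKM in mature DC and 19.1 RPKM in immature DC, a ratio of 0.577 (0.511 to 0.651). Ocstamp, the fusion partner gene of Dcstamp, was 3.48 RPKM in mature DC and 5.27 RPKM in immature DC. Calcr, the calcitonin receptor gene that marks osteoclasts, and Siglec15 were listed in neither file, and Oscar, named with it after its value was seen, had 0 reads in mature DC and 3 in immature DC. The 2 genes at least 2-fold lower were Tyrobp, the ITAM adaptor DAP12, at 0.285 times its immature level (0.263 to 0.309), and Spi1, which encodes PU.1, at 0.432 times (0.404 to 0.461). Csf1r, the receptor of the growth factor M-CSF, stood at 0.503 times (0.485 to 0.522), and Trem2, a receptor that signals through DAP12, at 1.19 times (1.1 to 1.3). Acp5 and Ctsk were thus present beside Tnfrsf11a, Itgav and Nfatc1. Itgb3 and Ocstamp were both low, Oscar had few reads, and Calcr and Siglec15 had no entry.

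Genes that encode known partners of the Gpnmb protein were described as well. Sdc4, the syndecan that binds DC-HIL on T cells, was 37.5 RPKM in mature DC and 10.1 RPKM in immature DC, 3.71-fold higher (3.16 to 4.38). Cd44, a hyaluronan receptor that Gpnmb binds, was 82.1 RPKM in mature DC and 120.0 RPKM in immature DC, a ratio of 0.684 (0.656 to 0.714). Adam10, a protease that sheds the Gpnmb ectodomain, was 46.5 RPKM in mature DC and 78.8 RPKM in immature DC, a ratio of 0.59 (0.555 to 0.627). Pmel, the close relative of Gpnmb that forms fibrils in melanosomes, was 1.34 RPKM in mature DC and 0.683 RPKM in immature DC, on 23 and 11 reads. Of the 8 genes of this list 3 were at least 2-fold higher, none was lower and the median log2 ratio was 0.50. The 3 were Sdc4, Itgav and Itgb3, and both integrin genes are also counted in the osteoclast list above. Over all genes compared, 9.05% were higher and 11.3% lower. With a pseudocount of 5 RPKM, with scaling by TMM or with intervals wholly beyond 2-fold, 2 genes of the list were higher.

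Genes downstream and upstream of the factors are set beside all genes compared, of which 79.6% lay within 2-fold. Of 30 lysosome and autophagy genes linked to TFEB, 2 were at least 2-fold higher in mature DC, 0 lower and 28 within 2-fold, with a median of 0.30. The 2 were Sqstm1, the autophagy adaptor p62, at 3.29-fold higher (3.17 to 3.41), and Scpep1, a lysosomal carboxypeptidase gene, at 2.53-fold higher (2.36 to 2.71). Psap and Ctsd, among the most abundant lysosomal genes, had ratios of 0.831 (0.824 to 0.839) and 0.914 (0.901 to 0.927). The V-ATPase list, which leaves out Atp6v0d2, had 18 of 24 genes compared, and all 18 lay within 2-fold, with a median of -0.19. Tcirg1, the a3 subunit of the osteoclast pump, was 137 RPKM in mature DC and 166 RPKM in immature DC. Of 25 genes for the control of these factors by mTORC1, 24 were compared, 2 were higher, 2 lower and 20 within 2-fold, with a median of 0.13. Flcn, folliculin, which promotes retention of Tfeb and Tfe3 in the cytoplasm, was 2.48-fold higher (2.13 to 2.9), and Rptor, the scaffold of mTORC1, 2.46-fold higher (2.19 to 2.76). Lamtor2 and Lamtor4, of the complex that anchors mTORC1 to lysosomes, stood at 0.463 (0.403 to 0.532) and 0.42 times (0.359 to 0.492) their immature levels. With a pseudocount of 5 RPKM only 1 gene of this list was higher, and by intervals wholly beyond 2-fold only 1 was lower.

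Lists of lipid-associated macrophage and cell fusion genes were described for comparison with the shares over all genes, 9.05% higher and 11.3% lower. Of 18 genes of lipid-associated macrophages, 2 were at least 2-fold higher, 5 lower and 11 within 2-fold, with a median of -0.68. Fabp4 and Fabp5, fatty acid binding protein genes, had ratios of 2.82 (2.19 to 3.67) and 2.61 (2.41 to 2.82). Spp1, osteopontin, stood at 405 RPKM in mature DC and 891 RPKM in immature DC, and Axl, a receptor for apoptotic cells, at 18.4 RPKM in mature DC and 192 RPKM in immature DC. Of 16 myeloid fusion genes, 1 was higher, 2 were lower and 13 lay within 2-fold, with a median of -0.46. The 2 lower were Cdh1 and Tyrobp. The lists overlap, and Tyrobp is also among the lower genes of the osteoclast and lipid-associated lists. Cdh1, E-cadherin, had the lowest ratio of the list, at 7.92 RPKM in mature DC and 118 RPKM in immature DC, and Tm4sf19, named after its value was seen, was the higher one, on 29 reads in mature DC and 6 in immature DC; it fell under the threshold with a pseudocount of 5 RPKM.

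**Figure D4:**
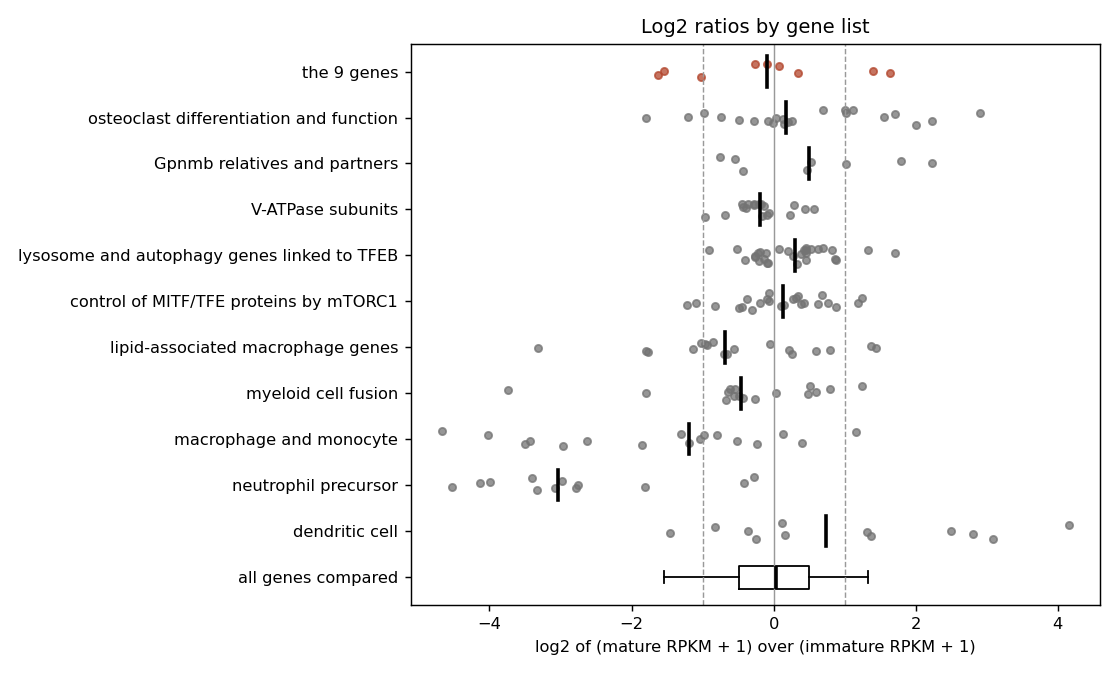
Log2 ratio of mature to immature DC (RPKM + 1) of each gene compared, by list; black bars are medians, dashed lines 2-fold. The box at the bottom shows the quartiles over all 11547 genes compared, with whiskers at percentiles 5 and 95. The 9 genes spread over both sides of 0, V-ATPase genes stay within 2-fold, and macrophage and neutrophil precursor genes lie to the left.

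Markers of other cells differed between the libraries as well. Over all genes compared, 9.05% were at least 2-fold higher and 11.3% lower. Of 20 macrophage and monocyte genes, 17 were compared, 1 was at least 2-fold higher in mature DC, 10 were lower and 6 within 2-fold. The higher one was Cd14, at 328 RPKM in mature DC and 146 RPKM in immature DC. The summed level of the list was 2674 RPKM in mature DC and 10444 RPKM in immature DC, and Vsig4 had no entry in either library. Lyz2, lysozyme, held most of the immature sum, and without it the sums were 1350 RPKM in mature DC and 2275 RPKM in immature DC. The choice of Gpnmb used this pattern, so it is no support. Of 12 neutrophil precursor genes 10 were lower and 0 higher, with sums of 2041 RPKM in mature DC and 8300 RPKM in immature DC. Without S100a9, the most abundant of these, the sums were 1540 RPKM in mature DC and 4851 RPKM in immature DC. Of 12 DC genes, 6 were higher and 1 was lower, with sums of 7154 RPKM in mature DC and 8779 RPKM in immature DC. Without Cd74, the most abundant gene of the list, the sums were 4244 RPKM in mature DC and 3607 RPKM in immature DC, so their order turned. Ccr7, the receptor that guides mature DC to lymph nodes, was 18.4-fold higher, and Itgax, CD11c, was the lower gene, at 148 RPKM in mature DC and 407 RPKM in immature DC. Cd86 was 5.82-fold higher, but its protein was used for the sort. So was I-Ab, whose chain genes H2-Aa and H2-Ab1 are also in this list. In such bulk samples fewer cells of a type and less RNA per cell cannot be told apart, and the part of these other cells in the values of Tfec, Dcstamp, Gpnmb and the other members was not tested.

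Most markers of cells that use MITF or cathepsin K outside the myeloid lineage had few reads or no entry. Of 10 melanocyte genes, 7 had no entry in either library, among them Tyrp1, Dct, Mlana and Sox10. Kit stood at 3.09 RPKM in mature DC and 2.46 RPKM in immature DC, and Tyr had 20 and 29 reads over only 3.6% of its length in mature DC. Of 15 genes of fibroblasts and bone-forming cells, 2 reached 1 RPKM: Dcn, a matrix proteoglycan, on 15 reads in mature DC and 2 in immature DC, and Runx2, a transcription factor of osteoblasts, at 17.1 RPKM in mature DC and 7.94 RPKM in immature DC. Bglap, Ibsp, Alpl, Sp7, Cxcl12 and Postn had no entry in either library. Whether the annotation used held the genes without an entry is not known.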

How the data were processed

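Each table deposited by the authors holds 1 library and, per the file headers, lists for each Entrez Gene number the count of unique reads, the gene model length, the coverage of that model in percent and the RPKM. The deposited counts are unnormalised. The authors' RPKM values were recomputed from reads, length and library total and differed by a relative deviation of at most 1.07e-07. The submitters' processing notes name mm8 as the build. Which aligner, counter and annotation made the tables, and whether strand was used, is not given in the sources used here. A gene missing from 1 file was taken as 0 reads there. For a gene missing from both, it is not known whether the annotation used held it. Symbols came from the RefSeq table of GRCm38.p6, for 16220 of 18090 IDs.

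With 1 library per group no test was made. Log2 ratios used RPKM + 1, for genes that reached 1 RPKM in either library. Plain ratios carry exact Clopper-Pearson 95% intervals on each gene's reads, and levels carry Poisson intervals. The libraries have no stated molecular identifiers, so reads need not be independent molecules. The steps were tested on counts simulated at the pooled rates of the real genes, with some genes changed. These counts held counting error only, so variation between libraries was not tested. Alternatives were pseudocounts of 0.1 and 5 RPKM, scaling to a common sum of RPKM, by TMM (edgeR 4.0.16) and by median ratios, a filter at 5 RPKM, no filter, and intervals wholly beyond 2-fold. Analyses ran in Python 3.11.15 and R 4.3.3.

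The members and the 12 gene lists were chosen with earlier results of these data known. Named genes were drawn from a set given by a rule. It held the members, the 5 nearest to Gpnmb, and up to 4 higher and 4 lower genes of each list with at least 5 RPKM. It also held the 3 most abundant of each list, and 12 paralogs, partners and osteoclast regulators set by name. Not every gene of that set is named in the text. Among those left out are Mrc1, C1qb, Ccr2, Atp6v0e, Atp6v1b2, Itgb1, Lamp1, Lgals3 and Adam8. They include genes higher and genes lower in mature DC. Genes named as markers with no entry, and others so marked, were named after their values were seen. The 35-base stretches are a choice made here, in place of the read length, which no label or header gives. Marker sums without the most abundant gene of a list were added after its values were seen.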

Additional observations from a re-analysis of the deposited data

How the results depend on the processing

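No paired analysis was possible because each group holds 1 library. For the same reason no library could be left out. The 2 members higher in mature DC numbered 2 under every alternative run, and the 3 lower became 2, without Tfeb, with a pseudocount of 5 RPKM, under scaling to a common sum of RPKM and with intervals wholly beyond 2-fold. The log2 ratio of Gpnmb was 1.49 with scaling to a common sum of RPKM and 1.36 with TMM; these scalings shift every gene by 0.086 and -0.038. Over all genes, a pseudocount of 5 RPKM gave 469 higher and 686 lower, and TMM turned the median to -0.0097. The osteoclast list had 5 genes higher, in place of 8, with a pseudocount of 5 RPKM and with intervals wholly beyond 2-fold. With TMM it had 6 higher, and 3 lower in place of 2. The mTORC1 list had 1 higher with a pseudocount of 5 RPKM and 1 lower by intervals, and its median turned to -0.065 with a filter at 5 RPKM. The fusion list had 0 higher with a pseudocount of 5 RPKM, a filter at 5 RPKM or intervals. The V-ATPase list had 1 lower, Atp6v0a1, with TMM. The fibroblast and bone list had 2 higher with a pseudocount of 0.1 RPKM and 0 with 5 RPKM, with TMM and by intervals. Other counts stayed within 1.5 times. Where a pseudocount or filter moved a value, low levels were what it acted on. Depth limits Tfe3, whose interval includes 1, and Tfeb, with 108 reads in mature DC.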

Other observations

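The a subunit of the V-ATPase, which sorts the pump to its membrane, differed in its make-up between the libraries, as the d subunit did. Tcirg1, the isoform of the osteoclast pump, held 67.0% of the summed level of the 3 measured a-subunit genes in mature DC and 57.8% in immature DC. Atp6v0a1 held 23.4% in mature DC and 32.9% in immature DC. It stood at 47.6 RPKM in mature DC and 94.4 RPKM in immature DC, a ratio of 0.505 (0.474 to 0.537), and both it and Atp6v0a2, at 9.6% in mature DC and 9.31% in immature DC, were named after their values were seen.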
